A study of Homo sapiens with 22 samples.

Results

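The genes of glucose uptake, glycolysis, lactate handling, the pyruvate dehydrogenase kinases and the pentose phosphate pathway were examined in Kasumi-1 cells in which FIP1L1 was knocked down. The 35 genes were listed by symbol, and each matched 1 of the 48162 gene IDs in the RNA-seq table. They comprise 2 glucose transporters, 3 hexokinases, 7 upper glycolysis genes, 3 PFKFB regulators, 7 lower glycolysis genes, 4 lactate genes, 3 pyruvate dehydrogenase kinases and 6 pentose phosphate genes. Kasumi-1, an established line from human acute myeloid leukaemia, carries a RUNX1 and RUNX1T1 fusion. FIP1L1 is a subunit of the complex that recognises the polyadenylation signal when the 3′ end of a transcript is made. Cells carried a control shRNA (shControl) or 1 of 2 shRNAs against FIP1L1 (shFIP1L1-1 and shFIP1L1-2, called shRNA 1 and shRNA 2), with 4 RNA-seq libraries in each of the 3 groups. All cells, controls included, were transduced with lentivirus, selected with puromycin and grown in RPMI with serum. The labels give total RNA extracted with Trizol, call the replicates biological and do not state separate transductions, so a p-value here reflects only the spread among these libraries. In these bulk libraries, fewer cells that express a gene and less of its RNA per cell cannot be told apart.

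Glycolysis splits glucose into pyruvate, makes ATP on the way, and feeds either lactate, which leaves the cell through monocarboxylate transporters, or the mitochondrial tricarboxylic acid cycle. The pyruvate dehydrogenase kinases restrain the entry of pyruvate into that cycle. The pentose phosphate pathway draws glucose 6-phosphate from glycolysis to supply NADPH and ribose for nucleotides, and its non-oxidative enzymes return sugars to glycolysis. Growing leukaemia cells are known for a high glucose demand. Several enzymes exist as isoenzymes encoded by separate genes that differ in regulation and tissue use.

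The libraries held 12236937 to 20388437 counted reads. Log CPM correlated at 0.968 or more within each group and at 0.954 or less across groups. The shRNA 1 libraries were less alike by a chi-square per degree of freedom between the counts of 2 libraries. It was 3.77 to 7.9 in the control and 4.06 to 6.86 with shRNA 2. With shRNA 1 it was 15.2 to 32.6 between replicates 1 or 2 and replicates 3 or 4. Replicates 1 and 2 gave 11.8, and replicates 3 and 4 gave 4.12. The cause of this split was not tested. FIP1L1 CPM (the usual read count per unit of library size, here TMM-scaled) was 42.2, 38.9, 44.1 and 40.2 in the control libraries, 14.1, 14.7, 15.1 and 17.6 with shRNA 1 and 20.2, 20.2, 19.1 and 18.7 with shRNA 2. Every knockdown library lay below every control library, with a log2 change of -1.43 ± 0.10 (SE, edgeR adjusted p = 1.92e-11) for shRNA 1 and -1.08 ± 0.10 (adjusted p = 3.01e-09) for shRNA 2. Changes that follow are log2 differences ± SE from this fit, with edgeR adjusted p. FIP1L1 itself was higher with shRNA 2 than with shRNA 1 by 0.35 (adjusted p = 0.00415). All 8 myeloid progenitor markers exceeded 1 CPM in every library, and their summed level was 18022 to 20158 CPM in the control, 8111 to 10391 with shRNA 1 and 11212 to 13832 with shRNA 2, most of it MPO. The 8 did not move together. With shRNA 1 SPI1 rose (0.56 ± 0.12, adjusted p = 0.00064) and the others were lower. With shRNA 2 CD34, RUNX1T1 and MPO fell, and KIT, RUNX1 and SPI1 were not called. CD33 (1.34 ± 0.08, adjusted p = 5.81e-12) and ANPEP (0.96 ± 0.06, adjusted p = 4.59e-12) rose with shRNA 2. Of the markers of other cell types, PAX5 and EPCAM exceeded 1 CPM in every library. The 4 epithelial markers summed to 122 to 149.9 CPM in the control, 40.2 to 48.6 with shRNA 1 and 136 to 144 with shRNA 2, nearly all EPCAM. The 3 B cell markers summed to 68.4 to 86.6, 42.0 to 59.3 and 67.0 to 79.8 CPM, nearly all PAX5, with MS4A1 at 0 in every library. The T cell sums stayed at or under 2.47 CPM, HBB of erythroid cells was at 0, and the fibroblast sums stayed at or under 0.822 CPM with COL1A2 and DCN at 0. The part of these marker shifts in the results that follow was not tested.

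With shRNA 1, 24 of the 35 genes were lower than in the control and 4 were higher (edgeR adjusted p under 0.05), while 57.3% of all 15834 tested genes were called, 28.7% lower and 28.6% higher. Their median log2 change was -0.68, against 0.02 over all tested genes. With shRNA 2, 19 were lower and 6 were higher, where 50% of all genes were called, 25.3% lower and 24.7% higher, and their median was -0.23 against 0.00048. Both shRNAs lowered 14 of the 35, beside 12.8% of all genes, and raised PFKM and PFKFB2, beside 12.6%. HK3, PGD and RPE were called in opposite directions, beside 7.86% of all genes. A further 15 were called with 1 shRNA, and ENO3 with neither. A fall of at least 2-fold, or a rise of that size, was called for 11 genes with shRNA 1 and for 3 with shRNA 2, beside 18.7% and 13.3% of all genes. In 14 genes all 8 knockdown libraries lay under all 4 controls, beside 12% of all genes, and in none did all 8 lie above, beside 10.3%. Taken singly, the shRNA 1 libraries lay wholly below the control in 22 genes and wholly above it in 2, beside 24.6% and 23.7% of all genes. The shRNA 2 libraries did so in 17 and 7 genes, beside 25.2% and 25%. The 2 comparisons share the control libraries. The counts by role below are read against the called shares of all tested genes given above. Without any scaling beyond library size, the median of all genes moved to 0.21 with shRNA 1 and 66.1% of calls were higher rather than 49.9%, and on that scale 20 of the 35 were lower and 6 higher.

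**Figure D1:**
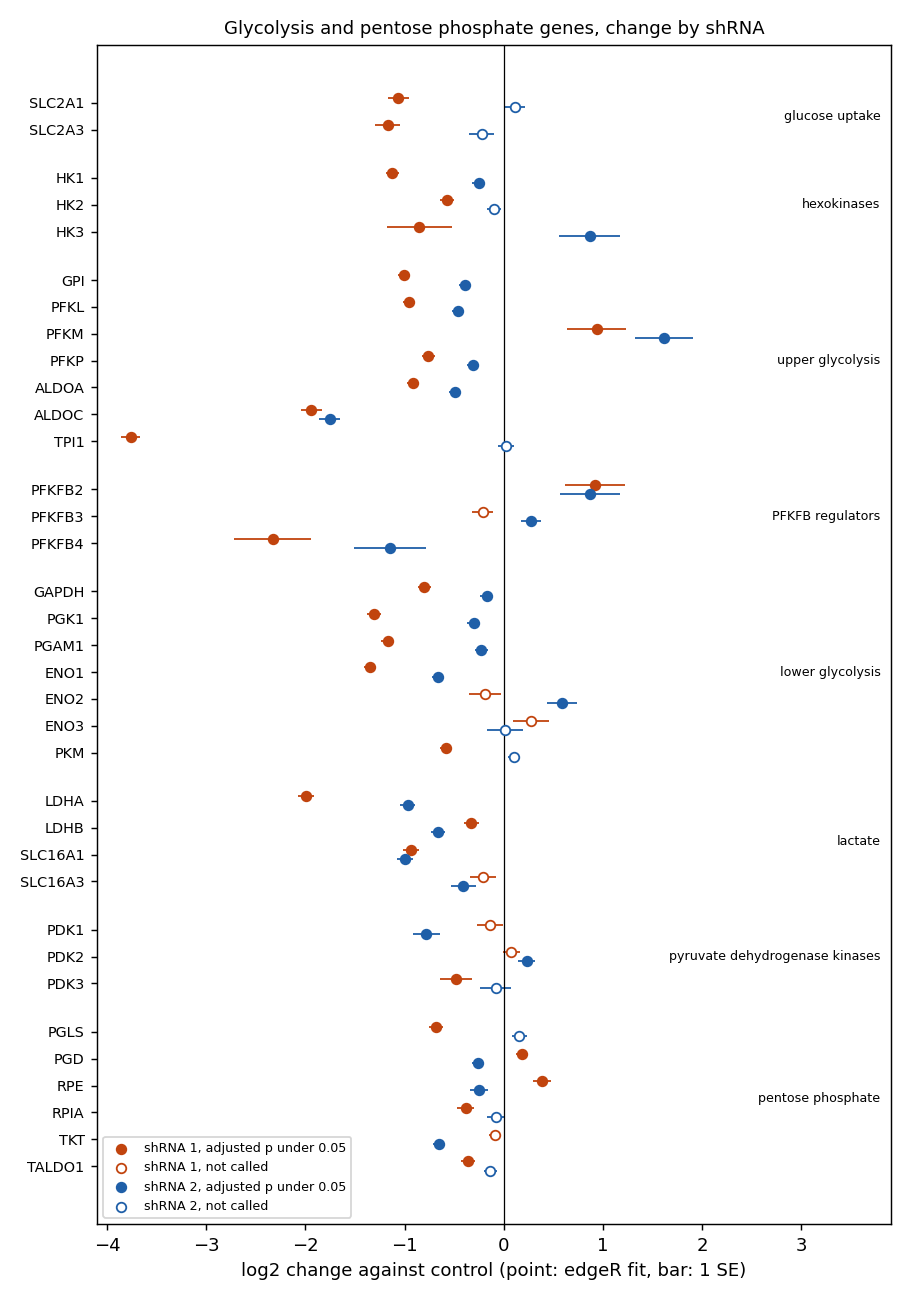
log2 change against the control for each of the 35 genes (x axis), grouped by role, with 1 SE as a bar. Filled points passed the edgeR threshold. Most shRNA 1 points lie left of 0, as do fewer of the shRNA 2 points, with TPI1 the farthest point at -3.76 with shRNA 1. Among the filled points, 24 are lower and 4 higher with shRNA 1, and 19 lower and 6 higher with shRNA 2.

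ACGTG is 1 form of the core that hypoxia-inducible factors recognise, and CACGTG, the E-box bound by MYC and related proteins, contains it. Other forms of that core were not searched. RefSeq promoter windows (GRCh38.p14, 250 bases before to 50 after the first listed start) matched 32 of the 35 genes. Searched on both strands, ACGTG stood in 10 of the 32 windows, in 21.6% of all 27305 windows and in 26.4% of the 10848 windows of tested genes. It stood in 6 of the 13 windows of genes that were lower with both shRNAs and in 4 of the other 19. CACGTG stood in 3 of the 32, all 3 lower with both shRNAs, in 7.44% of all windows and in 10.3% of those of tested genes. A match is a description of these letters, not a site in use. Stretches of these 6 windows are shown because they hold the motif among the 13 genes that were lower with both shRNAs, and the other 7 windows, without it, are not shown. They are read 5′ to 3′ on the gene strand, with the letters of each ACGTG or its reverse complement CACGT in capitals:
GPI: aacactgcctgtaACGTGgaaggtgttcga
ALDOA: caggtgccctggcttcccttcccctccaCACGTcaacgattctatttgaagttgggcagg
ALDOC: cccccggaggagtCACGTagctctgcgaca
GAPDH: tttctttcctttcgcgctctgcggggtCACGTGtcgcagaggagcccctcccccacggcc
PGK1: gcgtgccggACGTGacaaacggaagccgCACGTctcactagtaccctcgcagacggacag
LDHA: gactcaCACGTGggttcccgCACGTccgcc
The GPI stretch is chr19:34364817-34364846 (plus strand), over an exon of at least 1 GENCODE 29 transcript. The ALDOA stretch is chr16:30064073-30064132 (plus strand), upstream of the annotated gene. The ALDOC stretch is chr17:28576907-28576936 (minus strand), over an exon, and it shows 1 of the window's 3 matches. The GAPDH stretch is chr12:6535156-6535215 (plus strand), in an intron, and the start that RefSeq lists first there was not found in GENCODE 29 transcripts. The PGK1 stretch is chrX:78104037-78104096 (plus strand), with 2 of the window's 3 matches. It lies 211 to 152 bases before the start that RefSeq lists first. It counts as intron because GENCODE 29 begins the gene farther upstream, at 77910739. The LDHA stretch is chr11:18394470-18394499 (plus strand), over an exon, and holds 3 of the window's 5 matches, an E-box and a separate CACGT.

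Both glucose transporters, which carry glucose across the plasma membrane, fell with shRNA 1 and were not called with shRNA 2. SLC2A1 CPM was 60.4, 67.2, 52.6 and 61.1 in the control, 34.2, 28.99, 27.3 and 24.9 with shRNA 1 and 56.3, 64.8, 75.1 and 65.2 with shRNA 2. All shRNA 1 libraries lay below the control range and the shRNA 2 libraries overlapped it. The log2 change was -1.06 ± 0.10, adjusted p = 6.49e-09 with shRNA 1 and 0.12 ± 0.10, adjusted p = 0.353 with shRNA 2. SLC2A3, a transporter with high affinity for glucose, stood at 41.4, 51.4, 36.8 and 45.8 CPM in the control, 19.996, 16.6, 18.7 and 22.7 with shRNA 1 and 29.9, 35.8, 46.03 and 38.6 with shRNA 2. All shRNA 1 libraries lay below the control (-1.17 ± 0.13, adjusted p = 7.6e-08). The shRNA 2 libraries overlapped the control and differed from it by -0.22 ± 0.12, adjusted p = 0.1496. Leaving out shRNA 2 replicate 3, the highest of its group, brought that comparison to adjusted p = 0.0363.

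The 3 hexokinases, which phosphorylate glucose and so trap it in the cell, all fell with shRNA 1, while under shRNA 2 HK1 fell, HK3 rose and HK2 was not called. HK1, the form found in most tissues, measured 243, 228, 245 and 241 CPM in the control, 114, 109, 111 and 106 with shRNA 1 and 192, 182, 216 and 213 with shRNA 2. All knockdown libraries lay below the control, those of shRNA 1 lowest, at -1.12 ± 0.06, adjusted p = 9.75e-13 with shRNA 1 and -0.25 ± 0.06, adjusted p = 0.00201 with shRNA 2. HK2, the inducible form, measured 359, 377, 319 and 341 CPM in the control, 246, 245, 221 and 228 with shRNA 1 and 297, 318, 358 and 332 with shRNA 2. Its shRNA 1 libraries lay below the control (-0.57 ± 0.07, adjusted p = 2.22e-07), and those of shRNA 2 overlapped it (-0.10 ± 0.07, adjusted p = 0.252). HK3, a form of myeloid cells, was far rarer, at 15 to 109 reads a library. Its CPM was 3.06, 2.99, 2.76 and 2.299 in the control, 1.14, 0.6902, 2.10 and 2.302 with shRNA 1 and 4.82, 6.18, 3.397 and 5.83 with shRNA 2. It fell with shRNA 1 (-0.85 ± 0.33, adjusted p = 0.0297), where 1 library reached the control's lowest value, and rose with shRNA 2 (0.87 ± 0.30, adjusted p = 0.0208), where all libraries lay above the control. The HK3 fall was lost without control replicate 1 or 2 or shRNA 1 replicate 1 or 2 (adjusted p = 0.0673, 0.0598, 0.0663 and 0.0991), and with library size only, upper-quartile factors or only the 2 groups fitted (adjusted p = 0.0952, 0.0535 and 0.0805). The rise was lost without control replicate 4 or shRNA 2 replicate 2 or 4 (adjusted p = 0.0640, 0.0766 and 0.0625).

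Upper glycolysis, from glucose 6-phosphate to the triose phosphates, had 6 of 7 genes lower and 1 higher with shRNA 1, and 5 lower and 1 higher with shRNA 2. Beside these stand 28.7% lower and 28.6% higher of all tested genes with shRNA 1, and 25.3% and 24.7% with shRNA 2. GPI, which converts glucose 6-phosphate to fructose 6-phosphate, stood at 571, 551, 560.5 and 540.1 CPM in the control, 273, 268, 279 and 289 with shRNA 1 and 389, 403, 448 and 453 with shRNA 2. The 3 groups did not overlap, and the change was -1.004 ± 0.06, adjusted p = 3.17e-12 with shRNA 1 and -0.39 ± 0.06, adjusted p = 1.14e-05 with shRNA 2. PFKL and PFKP encode the phosphofructokinase subunits that made up nearly all of this family's reads, and phosphofructokinase catalyses the committed step of glycolysis. PFKL CPM was 442, 406, 400.0 and 411 in the control, 216, 218, 209 and 213 with shRNA 1 and 278, 301, 322 and 306 with shRNA 2. PFKP CPM was 416, 389.9, 370.5 and 386 in the control, 252, 230.0, 219 and 220.1 with shRNA 1 and 301, 302, 339.6 and 319 with shRNA 2. In both genes the shRNA 2 libraries lay between the other groups without overlap. PFKL changed by -0.95 ± 0.06, adjusted p = 5.23e-12 and by -0.46 ± 0.06, adjusted p = 1.02e-06 with shRNA 1 and 2. PFKP changed by -0.76 ± 0.06, adjusted p = 6.73e-10 and by -0.31 ± 0.06, adjusted p = 0.000325. The muscle form PFKM moved the other way from a very low level, at 9 to 126 reads a library. Its CPM was 2.54, 0.768, 2.28 and 1.85 in the control, 4.86, 3.77, 3.50 and 2.24 with shRNA 1 and 5.35, 6.01, 6.904 and 4.77 with shRNA 2. PFKM rose with shRNA 1 (0.94 ± 0.30, adjusted p = 0.00968), whose libraries overlapped the control, and with shRNA 2 (1.61 ± 0.29, adjusted p = 7.34e-05), whose libraries lay above it. The gene shares 628 bases with SENP1 on the other strand, at up to 48.9 CPM. Whether reads of the 2 were kept apart where they overlap is not known.

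ALDOA, the main aldolase, splits fructose 1,6-bisphosphate. It measured 1170.4, 1087, 1140.1 and 1091 CPM in the control, 596, 608, 584 and 597 with shRNA 1 and 749, 753, 856 and 829.8 with shRNA 2. The groups did not overlap, at -0.91 ± 0.06, adjusted p = 1.17e-11 with shRNA 1 and -0.49 ± 0.06, adjusted p = 3.76e-07 with shRNA 2. ALDOC (ENSG00000109107, chr17:28573115-28577264, minus strand), the brain-type isoenzyme, fell with both shRNAs. Its CPM was 66.1, 69.8, 58.6 and 57.03 in the control, 16.1, 13.6, 18.1 and 18.02 with shRNA 1 and 17.6, 20.3, 20.2 and 16.2 with shRNA 2. Every knockdown library lay below the control, while the 2 knockdown groups overlapped. The change was -1.94 ± 0.11, adjusted p = 6.63e-13 with shRNA 1 and -1.76 ± 0.11, adjusted p = 6.3e-12 with shRNA 2, and the difference between the shRNAs was 0.18 ± 0.11, adjusted p = 0.166.

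TPI1 (ENSG00000111669, chr12:6867119-6870948, plus strand), the triose phosphate isomerase, differed most between the shRNAs. Its CPM was 326, 302, 377 and 348 in the control, 20.2, 26.9, 23.6 and 29.3 with shRNA 1 and 342, 336, 349 and 349 with shRNA 2. The shRNA 1 libraries held 7.39% of the control mean, and all shRNA 2 libraries lay within the control range. The change was -3.76 ± 0.10, adjusted p = 6.08e-18 with shRNA 1, the 41st lowest of the 15834 genes, 0.02 ± 0.08, adjusted p = 0.834 with shRNA 2 and 3.78 ± 0.10, adjusted p = 3.22e-18 between the shRNAs. Named pseudogenes took up to 7.59% of the reads of TPI1 and its copies in a library, and reads could be split among them. Without TPI1, a count added after its values were seen, 23 of 34 genes were lower and 4 higher with shRNA 1, 19 and 6 with shRNA 2, with medians of -0.64 and -0.24. Of 11 tested genes within 50 kb of TPI1, ENO2 among them, 3 were lower with shRNA 1, 2 were higher and 6 were not called, beside 57.3% of all tested genes called, so these neighbours were not called more often than other genes. CD4, a surface protein of lymphoid and myeloid cells, went from 122 ± 11.1 to 36.8 ± 4.52 CPM (SD, n = 4), a log2 change of -1.73 ± 0.08, adjusted p = 6.99e-14. P3H3, a prolyl hydroxylase, changed by -1.03 ± 0.19, adjusted p = 0.000312, and the deubiquitinase USP5 by -0.64 ± 0.08, adjusted p = 2.07e-07. SPSB2, which overlaps the end of TPI1 by 14 bases on the other strand, rose from 4.497 ± 0.622 to 13.2 ± 2.73 CPM (1.54 ± 0.20, adjusted p = 5.54e-07). LRRC23 rose from 1.42 ± 0.3402 to 4.41 ± 0.695 CPM (1.61 ± 0.28, adjusted p = 3.41e-05). These 5 neighbours were chosen after their values were seen, and none of them was called with shRNA 2.

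**Figure D2:**
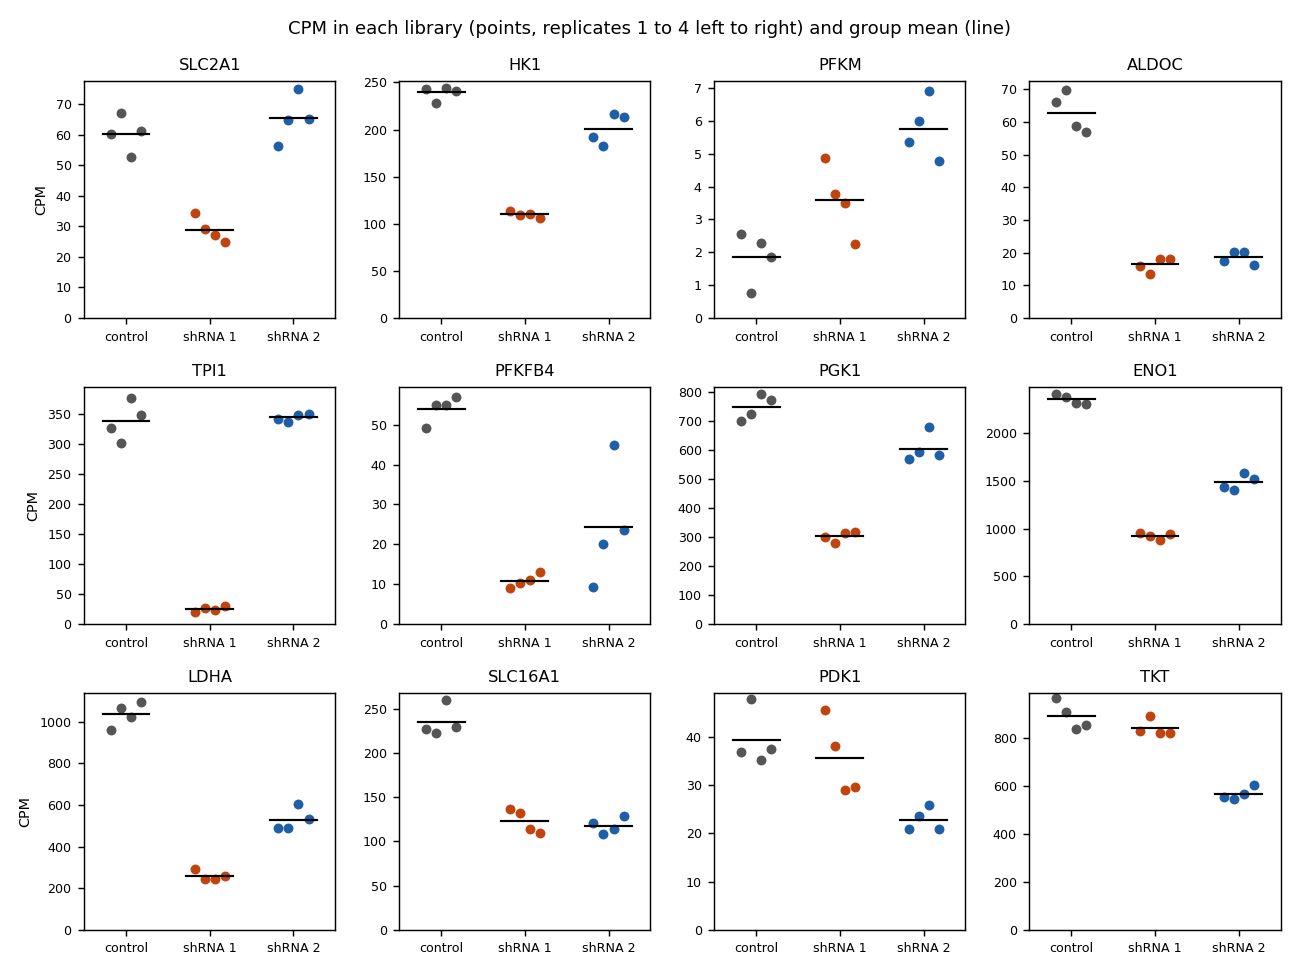
CPM in each of the 12 libraries (points) for 12 of the genes, with the group mean as a line and replicates 1 to 4 from left to right. TPI1 sits at 20.2 to 29.3 with shRNA 1 and at 336 to 349 with shRNA 2, ALDOC and SLC16A1 are low with both shRNAs, and PDK1 and TKT are low with shRNA 2.

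The PFKFB genes encode the enzymes that make and remove fructose 2,6-bisphosphate, the activator of phosphofructokinase. With shRNA 1, 1 of 3 fell and 1 rose, near the 28.7% and 28.6% of all tested genes. Under shRNA 2 PFKFB4 fell and both others rose, beside 25.3% lower and 24.7% higher of all tested genes. PFKFB4 (ENSG00000114268, chr3:48517684-48562015, minus strand) stood at 49.2, 54.98, 54.99 and 57.1 CPM in the control, 8.91, 10.2, 10.97 and 13.02 with shRNA 1 and 9.32, 19.9, 44.9 and 23.7 with shRNA 2. The shRNA 2 libraries were widely spread but stayed below the control, and the lowest of them fell within the shRNA 1 range. The change was -2.33 ± 0.39, adjusted p = 0.000506 with shRNA 1 and -1.15 ± 0.36, adjusted p = 0.0249 with shRNA 2. The shRNA 2 call was lost without control replicate 4, shRNA 2 replicate 2 or shRNA 2 replicate 4 (adjusted p = 0.0525, 0.0681 and 0.0572), and with no filter on low counts or only the 2 groups fitted. PFKFB2 was rare, at 17 to 71 reads a library, and overlaps YOD1 on the other strand by 315 bases. Its CPM was 1.27, 2.48, 2.28 and 1.51 in the control, 3.77, 2.21, 3.62 and 4.67 with shRNA 1 and 3.23, 3.34, 2.58 and 4.57 with shRNA 2. It rose by 0.92 ± 0.30, adjusted p = 0.0114 with shRNA 1, overlapping the control, and by 0.87 ± 0.30, adjusted p = 0.0191 with shRNA 2, above it. The shRNA 2 call was lost without control replicate 1 or 4 or shRNA 2 replicate 4 (adjusted p = 0.0684, 0.0617 and 0.0824). PFKFB3, the form with the strongest kinase activity, averaged 65.9 ± 3.33 CPM in the control, 56.8 ± 3.94 with shRNA 1 and 79.6 ± 15.9 with shRNA 2 (SD, n = 4). It was not called with shRNA 1 (-0.21 ± 0.10, adjusted p = 0.0884) and was higher with shRNA 2 (0.27 ± 0.10, adjusted p = 0.03203), with overlapping groups in both. That call was lost without control replicate 2, 3 or 4 (adjusted p = 0.0567, 0.09102 and 0.0677) and without shRNA 2 replicate 2 or 3 (adjusted p = 0.0868 and 0.201). The change was 0.15 without shRNA 2 replicate 3. With shRNA 1 PFKFB3 was called lower with no filter on low counts (adjusted p = 0.0219) or only the 2 groups fitted (adjusted p = 0.0451).

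Lower glycolysis, which yields ATP on the way to pyruvate, had 5 of 7 genes lower with shRNA 1 and none higher, and 4 lower and 1 higher with shRNA 2. The shares over all tested genes were 28.7% lower and 28.6% higher with shRNA 1, and 25.3% and 24.7% with shRNA 2. GAPDH, which oxidises glyceraldehyde 3-phosphate, measured 1684, 1662, 1777 and 1727 CPM in the control, 1007, 924, 1001 and 1006 with shRNA 1 and 1539, 1382, 1554 and 1599 with shRNA 2. Every knockdown library lay below the control, with -0.80 ± 0.06, adjusted p = 1.54e-10 for shRNA 1 and -0.17 ± 0.06, adjusted p = 0.0221 for shRNA 2. The small shRNA 2 fall was lost without control replicate 3 (adjusted p = 0.0586), without shRNA 2 replicate 2 (adjusted p = 0.104) and with library size as the only scaling (adjusted p = 0.174). PGK1 (ENSG00000102144, chrX:77910739-78129296, plus strand), phosphoglycerate kinase, stood at 699, 722, 791 and 772 CPM in the control, 299, 278, 314 and 316 with shRNA 1 and 567, 591, 678 and 581 with shRNA 2. The 3 groups did not overlap, and the change was -1.31 ± 0.07, adjusted p = 2.21e-13 with shRNA 1 and -0.30 ± 0.07, adjusted p = 0.000651 with shRNA 2. PGAM1, phosphoglycerate mutase, measured 154, 152, 156 and 149 CPM in the control, 70.6, 61.6, 72.6 and 66.8 with shRNA 1 and 126, 128, 139.6 and 129 with shRNA 2. It fell with both, at -1.17 ± 0.07, adjusted p = 6.48e-13 with shRNA 1 and -0.23 ± 0.06, adjusted p = 0.00546 with shRNA 2, the second lost with library size as the only scaling (adjusted p = 0.0668).

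ENO1 (ENSG00000074800, chr1:8861000-8879250, minus strand), the enolase of most tissues, had more reads in the control than any other gene of the 35. Its CPM was 2409, 2380.0, 2318 and 2311 in the control, 957, 925, 881 and 947 with shRNA 1 and 1436, 1402, 1586 and 1522 with shRNA 2. No groups overlapped, and it fell by 1.34 ± 0.06 (adjusted p = 1.61e-14) and by 0.66 ± 0.06 (adjusted p = 3.55e-09) on the log2 scale. ENO2, the neuronal enolase, measured 9.94, 9.14, 10.7 and 10.6 CPM in the control, 7.998, 8.93, 9.57 and 9.01 with shRNA 1 and 13.3, 17.6, 18.5 and 11.3 with shRNA 2. All shRNA 2 libraries lay above the control (0.59 ± 0.15, adjusted p = 0.00269), and shRNA 1 was not called (-0.19 ± 0.16, adjusted p = 0.312). ENO3, the muscle enolase, averaged 7.73 ± 0.514, 9.38 ± 1.74 and 7.82 ± 1.704 CPM in the control, shRNA 1 and shRNA 2 (SD, n = 4). Neither shRNA was called, and ENO3 overlaps PFN1, at up to 291 CPM, by 111 bases on the other strand. On library size alone ENO3 was called higher with shRNA 1 (adjusted p = 0.0272). PKM, pyruvate kinase, which makes pyruvate, measured 1289, 1293, 1310.5 and 1328 CPM in the control, 828, 899.8, 869 and 879 with shRNA 1 and 1339, 1355, 1476 and 1433 with shRNA 2. It fell with shRNA 1 (-0.59 ± 0.06, adjusted p = 8.72e-09). With shRNA 2 all libraries lay above the control but the difference of 0.10 ± 0.06 was not called (adjusted p = 0.149). That difference was called on library size alone (adjusted p = 0.0072).

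Of the 4 lactate genes, 3 fell with shRNA 1 and all 4 with shRNA 2, beside 28.7% and 25.3% of all tested genes. LDHA (ENSG00000134333, chr11:18394388-18408425, plus strand), the lactate dehydrogenase subunit that favours lactate formation, stood at 962, 1066, 1021 and 1097 CPM in the control, 294, 244, 246 and 257 with shRNA 1 and 492, 491, 605 and 532 with shRNA 2. The 3 groups did not overlap, with -1.995 ± 0.08, adjusted p = 1.32e-15 for shRNA 1 and -0.97 ± 0.08, adjusted p = 3.06e-10 for shRNA 2. LDHB, the subunit that favours pyruvate, measured 634, 678, 733 and 720.2 CPM in the control, 632, 539.6, 534 and 500.1 with shRNA 1 and 464, 411, 422 and 454 with shRNA 2. It changed by -0.33 ± 0.07, adjusted p = 0.000489 with shRNA 1 and by -0.66 ± 0.07, adjusted p = 7.35e-08 with shRNA 2, and every knockdown library lay below the control. The LDHB fall with shRNA 1 was lost with library size as the only scaling (adjusted p = 0.0759). SLC16A1, the monocarboxylate transporter MCT1, measured 227, 222, 260.1 and 229 CPM in the control, 136, 132, 113 and 109 with shRNA 1 and 121, 108, 114 and 128 with shRNA 2. Both shRNAs lowered it, with changes of -0.93 ± 0.08, adjusted p = 5.5e-10 and -0.99 ± 0.08, adjusted p = 3.73e-10, and differed by -0.06 ± 0.08 (adjusted p = 0.532). SLC16A3, the lactate exporter MCT4, averaged 62.7 ± 5.51, 54.2 ± 9.904 and 47.2 ± 7.98 CPM (SD, n = 4). It was called with shRNA 2 (-0.41 ± 0.13, adjusted p = 0.0136) and not with shRNA 1 (-0.21 ± 0.13, adjusted p = 0.171), and the groups overlapped in both. The shRNA 2 call was lost with library size as the only scaling (adjusted p = 0.0678). With shRNA 1 SLC16A3 was called lower with no filter on low counts (adjusted p = 0.0344). It shares 482 bases with CSNK1D on the other strand, and whether reads there were kept apart is not known.

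Of the 3 pyruvate dehydrogenase kinases, 1 was lower with shRNA 1, near the 28.7% of all tested genes. Under shRNA 2 PDK1 was lower and PDK2 higher, near the 25.3% and 24.7% of all tested genes. PDK1, a common target of hypoxia-inducible factors, measured 36.8, 47.8, 35.2 and 37.5 CPM in the control, 45.5, 38.2, 28.99 and 29.6 with shRNA 1 and 20.9, 23.6, 25.8 and 21.01 with shRNA 2. The shRNA 2 libraries lay below both other groups. Its change was -0.78 ± 0.13, adjusted p = 5.31e-05 with shRNA 2 and -0.14 ± 0.13, adjusted p = 0.375 with shRNA 1, and without shRNA 1 replicate 1 the latter was called (adjusted p = 0.0461). PDK2 averaged 24.8 ± 1.598, 26.2 ± 0.996 and 29.03 ± 0.898 CPM (SD, n = 4) and was higher with shRNA 2 (0.23 ± 0.09, adjusted p = 0.0369). That call was lost without control replicate 2 or 4 (adjusted p = 0.0949 and 0.0995) and without any 1 of the 4 shRNA 2 replicates (adjusted p = 0.0517 to 0.0936). It was also lost with the replicate number as a block (adjusted p = 0.0514) and with no filter on low counts (adjusted p = 0.0951). With shRNA 1 PDK2 was not called (adjusted p = 0.473) but was called higher on library size alone (adjusted p = 0.0127). PDK3 averaged 15.3 ± 1.71, 10.99 ± 3.33 and 14.5 ± 0.652 CPM and was lower with shRNA 1 (-0.48 ± 0.16, adjusted p = 0.0135). Overlapping groups and the loss of the call without control replicate 4 (adjusted p = 0.05905), without shRNA 1 replicate 3 (adjusted p = 0.0607) or on library size alone (adjusted p = 0.118) limit it.

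In the pentose phosphate pathway, 3 of 6 genes were lower and 2 higher with shRNA 1, and 3 were lower and none higher with shRNA 2. Among all tested genes 28.7% were lower and 28.6% higher with shRNA 1, and 25.3% and 24.7% with shRNA 2. PGLS, the lactonase of the oxidative branch, stood at 65.7, 55.7, 66.1 and 62.3 CPM in the control, 38.6, 38.1, 38.03 and 40.9 with shRNA 1 and 68.9, 67.2, 74.2 and 68.7 with shRNA 2. It fell with shRNA 1 (-0.68 ± 0.07, adjusted p = 4.23e-08), while the shRNA 2 libraries lay above the control without a call (0.16 ± 0.07, adjusted p = 0.0755). PGLS was called higher with shRNA 2 on library size alone (adjusted p = 0.00695). The same held with upper-quartile factors (adjusted p = 0.0378) or only the 2 groups fitted (adjusted p = 0.0378). PGD, which yields NADPH and ribulose 5-phosphate, measured 330.5, 305, 329 and 319.8 CPM in the control, 338, 369.7, 375 and 374 with shRNA 1 and 287, 258, 261 and 265 with shRNA 2. The 3 groups did not overlap, shRNA 1 highest (0.18 ± 0.06, adjusted p = 0.0128) and shRNA 2 lowest (-0.26 ± 0.06, adjusted p = 0.000876). RPE, the ribulose phosphate epimerase, showed the same order, at 34.5, 44.9, 44.005 and 37.7 CPM in the control, 49.5, 57.4, 51.5 and 51.4 with shRNA 1 and 35.97, 31.2, 35.9 and 32.1 with shRNA 2. It rose with shRNA 1 (0.38 ± 0.09, adjusted p = 0.00107) and fell with shRNA 2 (-0.25 ± 0.09, adjusted p = 0.0292), where it overlapped the control. The RPE fall was lost without control replicate 2 or 3 (adjusted p = 0.117 and 0.1003), without shRNA 2 replicate 2 or 4 (adjusted p = 0.0997 and 0.0809) and on library size alone (adjusted p = 0.1404). RPE shares 837 bases with KANSL1L on the other strand, at up to 30.1 CPM. TKT, transketolase, which links the pathway back to glycolysis, measured 964, 908, 836 and 850.3 CPM in the control, 826, 888, 819 and 819 with shRNA 1 and 554, 543, 563 and 603 with shRNA 2. Every shRNA 2 library lay below both other groups (-0.65 ± 0.06, adjusted p = 8.96e-09), and shRNA 1 was not called (-0.09 ± 0.06, adjusted p = 0.244). RPIA and TALDO1, the ribose phosphate isomerase and transaldolase, were lower with shRNA 1 and not called with shRNA 2 (adjusted p = 0.517 and 0.0972). RPIA averaged 74.96 ± 5.69, 57.4 ± 8.77 and 71.1 ± 3.81 CPM (-0.39 ± 0.09, adjusted p = 0.000873 with shRNA 1), a call lost on library size alone (adjusted p = 0.0873). TALDO1 averaged 200.4 ± 14.4, 156 ± 11.7 and 183 ± 5.203 CPM (-0.36 ± 0.07, adjusted p = 7.51e-05 with shRNA 1). With only the 2 groups fitted, TALDO1 was called lower with shRNA 2 (adjusted p = 0.0330).

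The shRNAs were then set against each other directly. Of the 35 genes, 24 were higher with shRNA 2 than with shRNA 1 and 5 were lower, where 58.7% of all tested genes were called, 29.3% higher and 29.4% lower, and the median difference was 0.49 against -0.02. The shRNA 2 libraries lay wholly above those of shRNA 1 in 21 genes and wholly below in 5, beside 27% and 25.7% of all genes. All 3 hexokinases, both glucose transporters, 6 of 7 upper and 6 of 7 lower glycolysis genes were among the higher. The 5 lower genes were LDHB (-0.33 ± 0.07, adjusted p = 0.000371), PDK1 (-0.64 ± 0.13, adjusted p = 0.000316), PGD (-0.44 ± 0.06, adjusted p = 1.14e-06), RPE (-0.63 ± 0.09, adjusted p = 3.05e-06) and TKT (-0.57 ± 0.06, adjusted p = 4.83e-08). PGD, RPE and TKT belong to the pentose phosphate pathway. After TPI1, the widest differences were in HK3 (1.72 ± 0.32, adjusted p = 6.17e-05), PFKFB4 (1.19 ± 0.39, adjusted p = 0.0246) and SLC2A1 (1.18 ± 0.10, adjusted p = 1.01e-09). The PFKFB4 difference was lost without shRNA 1 replicate 1, 2 or 3 (adjusted p = 0.0643, 0.0583 and 0.0528). LDHA differed by 1.03 ± 0.08, adjusted p = 6.43e-11 and PGK1 by 1.002 ± 0.07, adjusted p = 1.71e-11. The groups overlapped in PFKFB4 and in RPIA (0.31 ± 0.09, adjusted p = 0.00505), both called. PFKM (0.68 ± 0.27, adjusted p = 0.0363) and PDK3 (0.40 ± 0.16, adjusted p = 0.0351) were also called with overlapping groups. PFKM was lost without shRNA 1 replicate 3 or 4 (adjusted p = 0.0666 and 0.108) or shRNA 2 replicate 1, 2 or 3 (adjusted p = 0.0529, 0.07198 and 0.111). PDK3 was lost without shRNA 1 replicate 2, 3 or 4 (adjusted p = 0.0506, 0.1396 and 0.0921) or shRNA 2 replicate 1, 2 or 4 (adjusted p = 0.0535, 0.0619 and 0.08005). Both were also lost on library size alone and with upper-quartile factors. SLC16A3 was not called (-0.20 ± 0.13, adjusted p = 0.199) but passed without shRNA 1 replicate 1 (adjusted p = 0.0132) or shRNA 2 replicate 3 (adjusted p = 0.04096). On library size alone RPIA (adjusted p = 0.0725) and TALDO1 (adjusted p = 0.144) were lost too, and SLC16A1 was called lower (adjusted p = 0.0409). Without TPI1, 23 of 34 were higher and 5 lower.

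Isoenzyme balance within a library, which needs no scaling between libraries, is described by the log2 ratio of 2 genes' counts and was not tested. LDHB to LDHA averaged -0.59 ± 0.07 in the control, 1.08 ± 0.08 with shRNA 1 and -0.27 ± 0.18 with shRNA 2 (SD, n = 4). The shRNA 1 libraries stood above all others, and the shRNA 2 libraries overlapped the control. Per kilobase of exon, LDHA made up 41.9% ± 1.24 of the 2 genes' reads in the control, 18.5% ± 0.895 with shRNA 1 and 36.8% ± 2.94 with shRNA 2. ALDOC to ALDOA went from -4.16 ± 0.15 to -5.19 ± 0.21 and -5.43 ± 0.19, below the control in every library of both shRNAs. ENO2 to ENO1 went from -7.87 ± 0.13 to -6.71 ± 0.15 and -6.64 ± 0.34, above the control with both. HK2 to HK1 was 0.54 ± 0.14, 1.10 ± 0.07 and 0.70 ± 0.08, above the control in every shRNA 1 library, while the shRNA 2 libraries overlapped it. PFKFB4 to PFKFB3 was -0.29 ± 0.15, -2.41 ± 0.27 and -1.90 ± 0.70, below the control in every library of both shRNAs. PDK2 to PDK1 was -0.66 ± 0.27, -0.42 ± 0.34 and 0.35 ± 0.12, with the shRNA 2 libraries above both other groups. PFKP to PFKL, the pair that carried this family, differed from the control by 0.19 and 0.15.

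**Figure D3:**
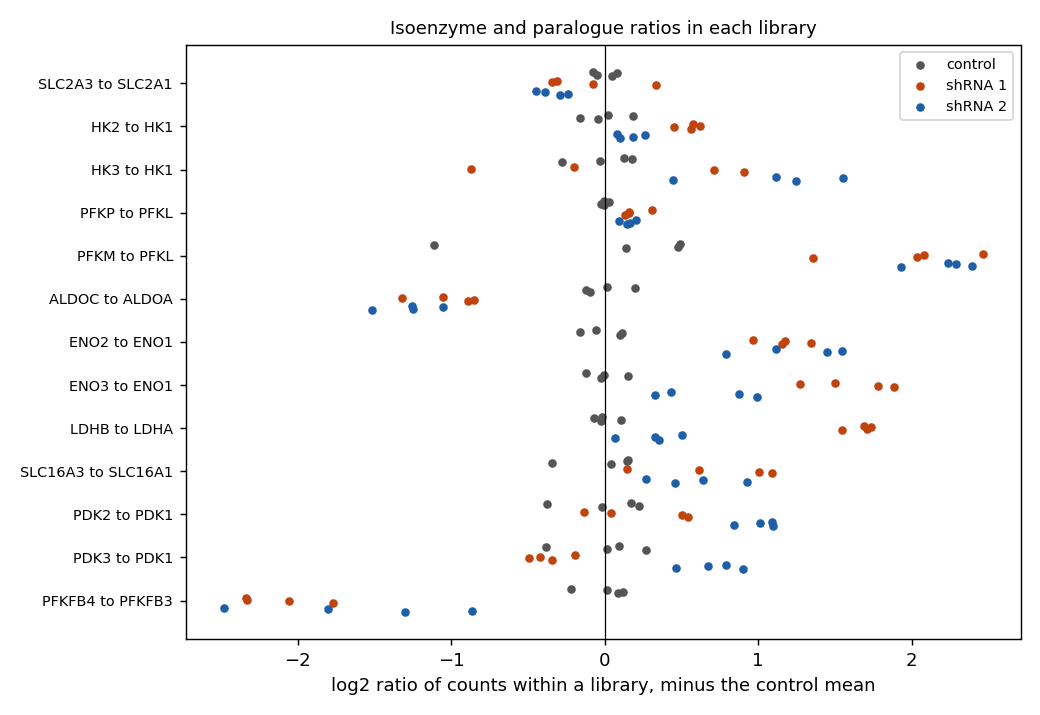
log2 ratio of 2 genes' counts within each library, minus the control mean (x axis), for 13 pairs, 1 point a library. LDHB to LDHA separates shRNA 1 (mean difference 1.67) from shRNA 2 (0.31), while ALDOC to ALDOA is lower and ENO2 to ENO1 higher with both shRNAs.

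In the control the level per kilobase of exon was highest for GAPDH, at 575 CPM per kb, followed by ENO1 at 446, ALDOA at 287, LDHB at 232, LDHA at 167, PKM at 152, PGK1 at 135 and TPI1 at 125. The lowest were HK3 at 0.845, PFKM at 0.254 and PFKFB2 at 0.185 CPM per kb. Of the 34 neighbouring pairs in this order, 14 had overlapping control libraries, among them PGK1 and TPI1, while GAPDH, ENO1, ALDOA and LDHB were each separate from the next. With shRNA 1, LDHB at 185 CPM per kb stood above ENO1 at 176, with overlapping libraries, and LDHA was at 41.9. With shRNA 2, PKM at 163 stood above LDHB at 147, and LDHA was at 85.3. These orders depend on the exon lengths used. By CPM alone, ENO1 stood above GAPDH in the control (2354 against 1713) and LDHA above LDHB (1037 against 691).

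The 35 genes together took 1.28% ± 0.0197 of counted reads in the control, 0.8103% ± 0.00811 with shRNA 1 and 1.04% ± 0.0488 with shRNA 2 (SD, n = 4). No groups overlapped. The lower glycolysis genes took 0.589% ± 0.006097, 0.339% ± 0.00926 and 0.512% ± 0.0238. The lactate genes took 0.1897% ± 0.00776, 0.106% ± 0.00667 and 0.112% ± 0.00553. The pentose phosphate genes took 0.149% ± 0.00619, 0.161% ± 0.00711 and 0.118% ± 0.00116, lowest with shRNA 2. On the TMM scale used for the CPM values, their summed level was 1589 ± 46.98 CPM in the control, 1507 ± 50.7 with shRNA 1 and 1191 ± 29.1 with shRNA 2 (SD, n = 4), so the shRNA 1 direction depends on the scaling.

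**Figure D4:**
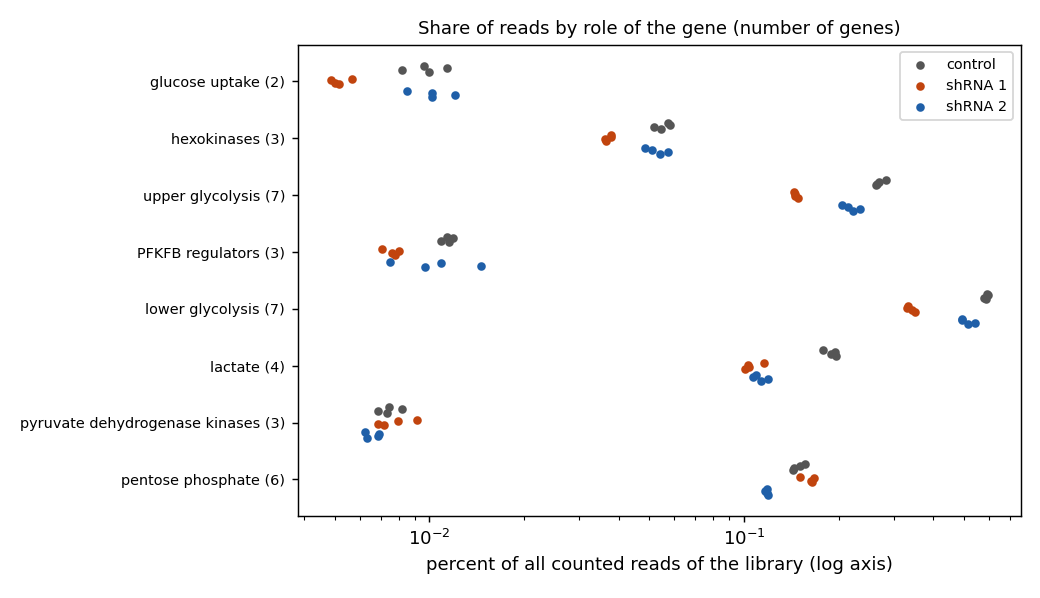
Percent of each library's counted reads that fell on the genes of each role (log x axis, 1 point a library). Lower glycolysis drops from 0.589% in the control to 0.339% with shRNA 1 and 0.512% with shRNA 2. Pentose phosphate genes are lowest with shRNA 2.

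Genes next to these pathways were counted in 6 lists with 96 tested genes. Of them, 30 were higher and 38 lower with shRNA 1, beside 28.6% and 28.7% of all tested genes. With shRNA 2, 23 were higher and 41 lower, beside 24.7% and 25.3%. The counts of higher genes were near those shares. The counts of each list below are read against the same shares. In the tricarboxylic acid cycle list 13 of 18 were lower and 2 higher with shRNA 1, and 11 were lower and 1 higher with shRNA 2. OGDH, a subunit of the 2-oxoglutarate dehydrogenase, went from 154 ± 9.11 CPM in the control to 69.1 ± 5.88 with shRNA 1 (-1.16 ± 0.07, adjusted p = 2.32e-12) and 84.01 ± 2.63 with shRNA 2 (-0.88 ± 0.07, adjusted p = 4.32e-10). SDHB, the iron-sulphur subunit of succinate dehydrogenase, changed by -0.57 ± 0.08, adjusted p = 2.22e-06 and by -0.63 ± 0.08, adjusted p = 8.29e-07. Of 15 genes that bring pyruvate or malate into mitochondrial metabolism, 10 were lower and 4 higher with shRNA 1, and 9 were lower and 2 higher with shRNA 2. The malic enzyme ME2 fell from 148 ± 2.602 to 61.7 ± 3.14 and 77.8 ± 6.52 CPM (-1.26 ± 0.07, adjusted p = 3.98e-13, and -0.93 ± 0.07, adjusted p = 1.25e-10). Pyruvate carboxylase, PC, changed by -1.86 ± 0.13, adjusted p = 6.19e-11 with shRNA 1 and -0.55 ± 0.13, adjusted p = 0.000838 with shRNA 2. PCK2, the mitochondrial phosphoenolpyruvate carboxykinase, changed by -0.53 ± 0.07, adjusted p = 5.02e-07 and -1.16 ± 0.07, adjusted p = 3.53e-12.

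In the list of MYC and glucose sensing, 9 of 15 were higher and 1 lower with shRNA 1, and 5 were higher and 6 lower with shRNA 2. TXNIP, planned for that list, matched no gene ID of the RNA-seq table by symbol and was not counted. MYC, a transcription factor that activates many glycolysis genes, went from 697 ± 19.5 CPM to 356 ± 33.97 with shRNA 1 (-0.97 ± 0.07, adjusted p = 2.23e-11) and 458 ± 22.6 with shRNA 2 (-0.61 ± 0.07, adjusted p = 7.63e-08). MXD1, which competes with MYC for the partner MAX, rose from 35.1 ± 1.48 to 84.4 ± 4.03 and 69.3 ± 2.78 CPM (1.27 ± 0.07, adjusted p = 5.38e-13, and 0.98 ± 0.07, adjusted p = 8.34e-11). KLF10, a transcription factor, rose from 12.02 ± 2.79 to 41.8 ± 2.59 and 33.7 ± 2.27 CPM (1.80 ± 0.12, adjusted p = 2.17e-11, and 1.49 ± 0.12, adjusted p = 1.04e-09). Of 21 hypoxia regulators and common hypoxia targets, 7 were higher and 6 lower with shRNA 1, and 7 were higher and 5 lower with shRNA 2, near the shares of all tested genes (28.6% and 28.7%, then 24.7% and 25.3%). The histone demethylase KDM3A rose (0.70 ± 0.07, adjusted p = 8.66e-09, and 0.57 ± 0.07, adjusted p = 3.22e-07) and FAM162A fell (-0.71 ± 0.13, adjusted p = 5.73e-05, and -0.76 ± 0.13, adjusted p = 3.13e-05). On the branches from glycolysis, 5 of 13 were higher and 4 lower with shRNA 1, and 6 were higher and 4 lower with shRNA 2, with the lower counts near the shares of all tested genes (28.7% and 25.3%). PGM1, which interconverts glucose phosphates towards glycogen, rose from 65.6 ± 3.79 to 102 ± 7.25 and 111 ± 7.29 CPM (0.63 ± 0.07, adjusted p = 9.06e-08, and 0.75 ± 0.07, adjusted p = 9.89e-09). GPD1L, related to glycerol 3-phosphate dehydrogenase, fell (-1.22 ± 0.08, adjusted p = 2.56e-11, and -0.81 ± 0.08, adjusted p = 2.68e-08). Of 30 other isoenzymes and transporters 14 were tested, with 3 higher and 4 lower with shRNA 1 and 2 higher and 6 lower with shRNA 2. SLC2A4, the insulin-regulated glucose transporter, fell from 9.55 ± 1.199 to 4.38 ± 0.981 and 2.51 ± 0.3497 CPM (-1.12 ± 0.20, adjusted p = 3.94e-05, and -1.92 ± 0.21, adjusted p = 5.82e-08). SLC16A7, the monocarboxylate transporter MCT2, fell as well (-0.52 ± 0.10, adjusted p = 6.23e-05, and -0.93 ± 0.10, adjusted p = 3.82e-08).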

How the data were processed

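Values are raw read counts per Ensembl gene in 12 RNA-seq libraries, whole numbers as deposited by the authors. The submitters' processing notes name, with no role given, hg19, cutadapt 2.6, STAR 2.7.3a and DESeq2. The counting tool and its annotation and strand setting were not given in the sources used here. Whether reads of genes that overlap on opposite strands were kept apart is therefore not known. Such an overlap exists for 18 of the 35 genes, though the partners of HK1, ALDOC and GAPDH were at 0 CPM. Named pseudogenes held up to 7.59%, 3.67% and 1.02% of the joint reads of TPI1, PGAM1 and LDHA in a library. The deposited 3'READS counts carry no gene names and were not used here.

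Symbols, positions and exon lengths came from GENCODE 29 (GRCh38). An exon length is the number of bases covered by the exons of all transcripts of a gene, which can exceed the length of its main transcript. Testing used edgeR 4.0.16 (quasi-likelihood F test, R 4.3.3) on 1 fit of all 12 libraries, with filterByExpr, which all 35 genes passed, TMM, a robust spread and 9 residual degrees of freedom. P-values are two-sided, adjusted by Benjamini-Hochberg over 15834 genes, threshold 0.05. The script was tested on simulated data. DESeq2 1.42.0 was an alternative among those in the closing section.

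Values in every library are given for genes called with a log2 change of at least 0.5 with 1 shRNA or between shRNAs, or called in opposite directions. Of the neighbouring lists, genes past 0.5 with both shRNAs are named, up to 4 a list. Members and lists were chosen with earlier results of these data known.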

Additional observations from a re-analysis of the deposited data

Results flagged for a closer look

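In 4 of the 105 sets of 4 libraries examined (35 genes in 3 groups), 1 library stood apart from the rest of its group, and chance alone would give about 1 in 20. All 4 are in the shRNA 1 group. PFKFB3 reached 62.7 CPM in shRNA 1 replicate 2, against 54.1 to 55.5 in the others. TKT reached 888 CPM in the same library, against 819 to 826. GAPDH was lowest there, at 924 CPM, against 1001 to 1007. PGD was lowest in shRNA 1 replicate 1, at 338 CPM, against 369.7 to 375.

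For 29 of the 35 genes the 2 shRNAs differed from each other by the direct edgeR test, beside 58.7% of all tested genes. Such a difference is thus common outside these genes too. Higher with shRNA 2 than with shRNA 1 on the log2 scale were SLC2A1 by 1.18, SLC2A3 by 0.95, HK1 by 0.87, HK2 by 0.47, HK3 by 1.72, GPI by 0.61, PFKL by 0.50, PFKM by 0.68, PFKP by 0.45, ALDOA by 0.42, TPI1 by 3.78, PFKFB3 by 0.49, PFKFB4 by 1.19, GAPDH by 0.63, PGK1 by 1.002, PGAM1 by 0.94, ENO1 by 0.68, ENO2 by 0.77, PKM by 0.69, LDHA by 1.03, PDK3 by 0.40, PGLS by 0.84, RPIA by 0.31 and TALDO1 by 0.22. Lower with shRNA 2 were LDHB at -0.33, PDK1 at -0.64, PGD at -0.44, RPE at -0.63 and TKT at -0.57. The causes of these differences were not tested.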

How the results depend on the processing

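Over 1680 values of the 35 genes under the alternatives, none that was called changed direction, 1597 kept their side of the threshold, 68 lost a call and 15 gained one. Across the 35 genes, FIP1L1 and the named genes of the neighbouring lists together, 15 values called in neither setting changed sign. The number of genes called higher with shRNA 2 went from 6 to 2 without control replicate 4, 3 without shRNA 2 replicate 2 and 3 without shRNA 2 replicate 4, and ranged from 2 to 5 when each library was left out in turn. The other counts with 1 library left out were 4 higher and 23 to 24 lower with shRNA 1, 16 to 20 lower with shRNA 2, and 21 to 23 higher and 5 to 6 lower between the shRNAs. Under the other settings (DESeq2, library size only, upper-quartile factors, scaling without the 35 genes, no filter, only the 2 groups compared, non-robust spread) the counts were 4 to 6 higher and 20 to 26 lower with shRNA 1, 5 to 8 higher and 15 to 19 lower with shRNA 2, and 20 to 24 higher and 5 to 6 lower between the shRNAs. With upper-quartile factors the median of all genes moved to 0.12 with shRNA 1, and with library size only it moved to -0.13 between the shRNAs. Replicate numbers did not pair the libraries, since same-numbered libraries had correlations of their deviations from -0.0369 to 0.0893, 0 of 12 above 0.1. With the replicate block, 24 genes were lower and 4 higher with shRNA 1, 19 and 5 with shRNA 2, and PDK2 was lost with shRNA 2 (adjusted p = 0.0514). HK3, PFKM and PFKFB2 rested on 9 to 126 reads a library, which limits their precision (SE of 0.27 to 0.33 in the 3 comparisons). The cause of these changes with the settings was not tested.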
